A study of Rattus norvegicus with 9 samples.

Results

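Genes of white and brown fat were followed by name through RNA sequencing of rat arteries. The white fat genes were Adipoq, Plin1, Cidec, Pck1, Pnpla2 and Lep, and the brown fat genes were Ucp1, Cidea, Ppargc1a and Cpt1b. All 10 were found among the 30452 features counted in each library. The arteries came from offspring aged 3 to 5 months whose dams ate standard diet in pregnancy. Each of 3 groups had 3 libraries: control pulmonary artery (numbered 1, 2 and 4), high-sucrose mesenteric artery (1, 2 and 3) and control mesenteric artery (1, 2 and 3). Dams of the high-sucrose group drank 20% sucrose water and dams of the control groups drank ordinary water. The labels name the arteries and do not mention fat, and they give neither strain nor sex. They also do not say whether each library is a separate animal, so each p-value below measures the spread between libraries, which may be technical.

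Arteries lie in a sheath of perivascular fat, which can share features of white or brown fat depending on the vessel and the species. White adipocytes store triglyceride in a single large droplet and secrete hormones, whereas brown adipocytes burn fatty acids in mitochondria to make heat through the uncoupling protein Ucp1. Both kinds of cell use the nuclear receptor Pparg and share much of the droplet machinery. The droplet genes among the white genes listed here are therefore also active in brown fat.

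Start sites were taken from RefSeq on the build GRCr8, with 250 bases before and 50 after the start. A promoter was on record for 9 of the 10 genes, without Cpt1b. The 4 shown are those of Ucp1 and Ppargc1a, the brown genes that define heat production and its control, and of Pck1 and Adipoq, the white genes whose ratio separated the groups below. Capitals mark every match, on either strand, to ACGTCA, the core of the cyclic AMP response element, or to AGGTCA, a half-site of nuclear receptors. Each sequence is written 5′ to 3′ in the direction of transcription.
Ucp1, chr19:41721372-41721671, minus strand: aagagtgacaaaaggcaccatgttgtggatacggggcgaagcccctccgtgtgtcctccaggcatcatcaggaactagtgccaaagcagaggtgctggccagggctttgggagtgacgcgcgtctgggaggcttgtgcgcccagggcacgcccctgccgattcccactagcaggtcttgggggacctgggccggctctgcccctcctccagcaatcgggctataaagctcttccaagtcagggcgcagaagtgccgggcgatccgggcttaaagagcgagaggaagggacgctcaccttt
Ppargc1a, chr14:63634058-63634357, plus strand: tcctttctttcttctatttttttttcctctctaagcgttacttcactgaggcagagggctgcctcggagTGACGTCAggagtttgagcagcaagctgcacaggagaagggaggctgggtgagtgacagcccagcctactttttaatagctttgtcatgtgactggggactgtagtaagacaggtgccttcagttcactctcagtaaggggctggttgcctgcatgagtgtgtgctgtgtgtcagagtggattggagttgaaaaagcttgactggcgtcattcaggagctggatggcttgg
Pck1, chr3:182348322-182348621, plus strand: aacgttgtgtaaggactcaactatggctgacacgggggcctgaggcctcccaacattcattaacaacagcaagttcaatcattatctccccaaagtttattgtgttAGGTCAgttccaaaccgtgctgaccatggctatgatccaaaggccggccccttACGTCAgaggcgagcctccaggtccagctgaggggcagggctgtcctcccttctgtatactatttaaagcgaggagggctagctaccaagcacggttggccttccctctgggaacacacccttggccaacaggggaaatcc
Adipoq, chr11:91240120-91240419, minus strand: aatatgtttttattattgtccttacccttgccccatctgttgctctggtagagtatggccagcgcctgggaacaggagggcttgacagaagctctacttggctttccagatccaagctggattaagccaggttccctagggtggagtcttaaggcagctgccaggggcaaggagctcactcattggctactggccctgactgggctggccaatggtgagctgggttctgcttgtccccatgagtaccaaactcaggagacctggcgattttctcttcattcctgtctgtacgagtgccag
ACGTCA or its complement TGACGT was present in 2658 of 33469 RefSeq promoters of this length (7.94%), and among the 9 fat genes in Pck1 and Ppargc1a. In Ppargc1a the 2 matches overlap and form 1 palindrome, TGACGTCA. AGGTCA or its complement TGACCT was present in 5415 promoters (16.2%), and among the 9 genes in Pck1. Neither string occurred in these windows of Ucp1 and Adipoq, which says nothing of factor binding.

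Levels are given as CPM, counts scaled to the library total after TMM, a normalization that sets aside genes with extreme ratios. They are compared within a gene and not between genes, because transcript lengths were not used. Library totals ran from 10388231 to 15420546 counts. All 9 libraries held the artery genes, but pulmonary replicate 4 had the lowest summed level of 11 smooth muscle genes (3778 CPM, against 11836 to 45533 CPM in the other 8). That library was also the highest of the 9 for 12 of 12 lymphocyte genes (2183 CPM summed) and 11 of 11 lung epithelium genes (922 CPM). Cardiac muscle genes peaked in pulmonary replicate 2 (17 of 17). They summed to 1089, 27766 and 2305 CPM in pulmonary replicates 1, 2 and 4. The sums were 59.5 to 118 CPM in the high-sucrose mesenteric libraries and 37.0 to 93.4 CPM in the mesenteric controls. In pulmonary replicate 1 the single gene Actc1 made up 1022 CPM of the sum. The mean level of the list on the log2 scale was 1.13, 9.41 and 5.72 in pulmonary replicates 1, 2 and 4.

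**Figure D1:**
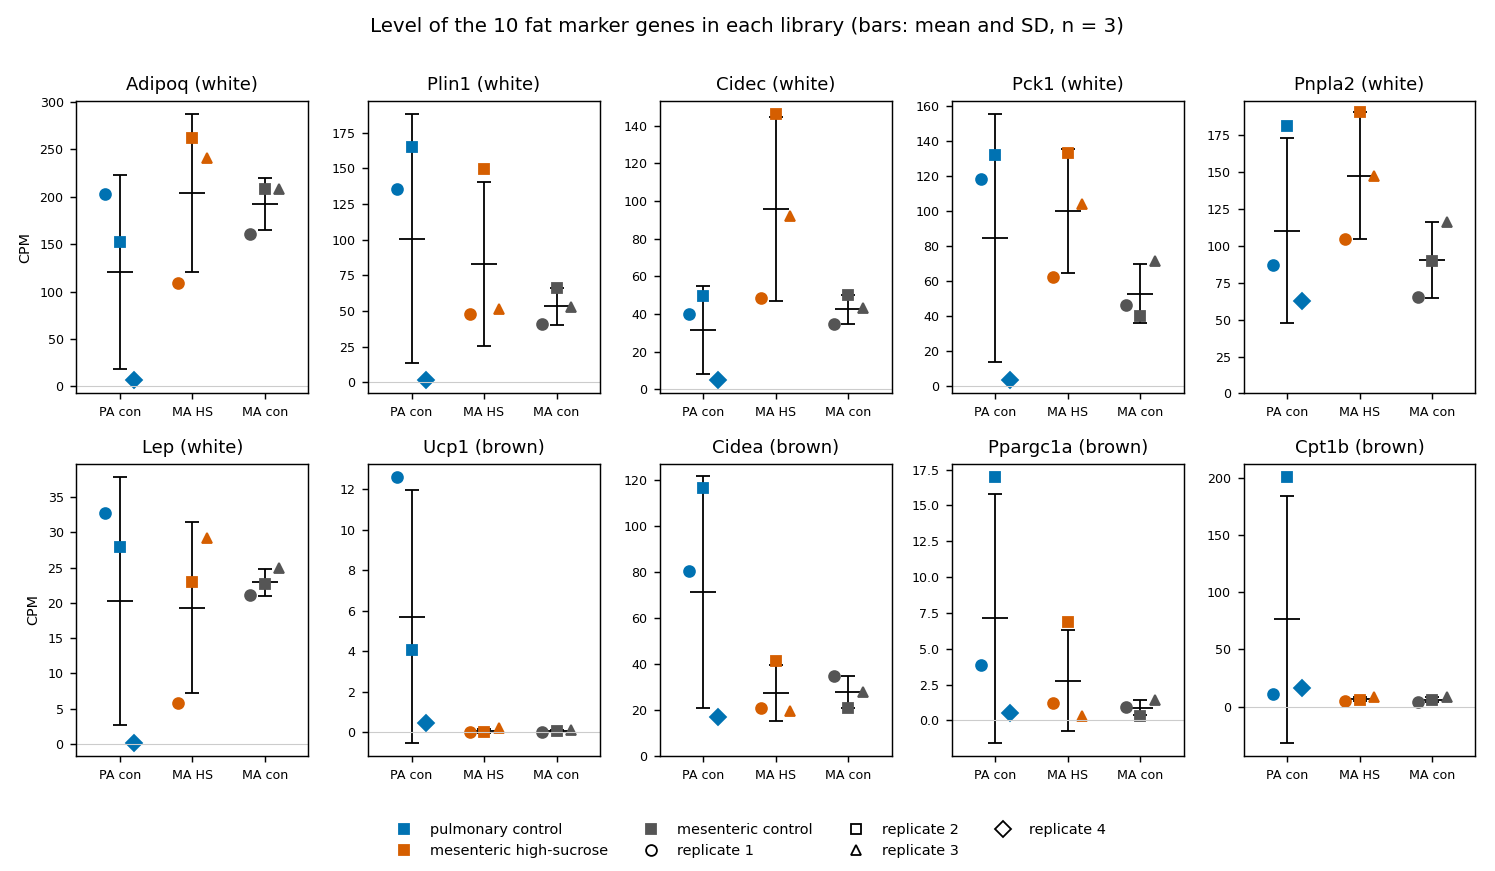
Level in CPM (vertical axes, linear, a scale for each gene) of the 10 fat genes in each library, by group: PA con, pulmonary artery of control offspring; MA HS, mesenteric artery of high-sucrose offspring; MA con, mesenteric artery of control offspring. Symbols are replicates and bars the mean and SD of 3 libraries. Ucp1 is at 0.45 CPM or more in the pulmonary libraries and at most 0.19 CPM in the mesenteric ones, and pulmonary replicate 4 is the lowest point for each of the 6 white genes.

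Adipoq encodes adiponectin, the main secreted hormone of adipocytes. Its level was 203, 152 and 6.58 CPM in pulmonary libraries 1, 2 and 4, at 109, 262 and 241 CPM in high-sucrose mesenteric replicates 1, 2 and 3, and at 160, 209 and 208 CPM in mesenteric control replicates 1, 2 and 3. The pulmonary replicate 4 library stood far below the other 8, and the 3 groups overlapped. Lep, the satiety hormone leptin, was at 32.7, 27.9 and 0.13 CPM in the pulmonary libraries, at 5.78, 23.0 and 29.2 CPM in the high-sucrose mesenteric libraries and at 21.1, 22.6 and 24.9 CPM in the mesenteric controls. Leptin was nearly missing from pulmonary replicate 4, where only 2 counts fell on it, and high-sucrose replicate 1 was the low library of the mesenteric arteries. In bulk tissue, fewer fat cells and less RNA per fat cell cannot be told apart.

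Plin1, the perilipin that coats the lipid droplet and gates its breakdown, was at 135, 165 and 1.61 CPM in the pulmonary libraries, at 48.0, 150 and 51.5 CPM in the high-sucrose mesenteric libraries and at 40.7, 66.4 and 52.7 CPM in the mesenteric controls. Pulmonary replicates 1 and 2 lay above all mesenteric controls and pulmonary replicate 4 below them. Cidec, which fuses droplets into a single large one, was at 39.8, 49.5 and 4.78 CPM in the pulmonary libraries, at 48.5, 146 and 92.2 CPM in the high-sucrose mesenteric libraries and at 34.5, 49.8 and 43.2 CPM in the mesenteric controls. Of the high-sucrose libraries, replicates 2 and 3 lay above all controls and replicate 1 among them.

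Pnpla2, the lipase that takes the first fatty acid off stored triglyceride, was at 87.0, 181 and 62.7 CPM in the pulmonary libraries, at 104, 191 and 147 CPM in the high-sucrose mesenteric libraries and at 65.1, 89.6 and 116 CPM in the mesenteric controls. It was the white gene least reduced in pulmonary replicate 4, and many tissues outside fat express it. Pck1, which supplies glycerol for triglyceride in fat and makes glucose in liver and kidney, was at 118, 132 and 3.42 CPM in the pulmonary libraries, at 62.5, 133 and 104 CPM in the high-sucrose mesenteric libraries and at 46.5, 40.2 and 71.7 CPM in the mesenteric controls. The high-sucrose libraries overlapped the controls for both genes through replicate 1. A list of 9 liver and kidney markers summed to 7.16 to 27.8 CPM in the pulmonary libraries, 4.70 to 11.1 CPM in the high-sucrose and 7.23 to 10.03 CPM in the control mesenteric libraries. The albumin gene Alb, a liver marker, reached 25.3, 9.81 and 0.065 CPM in the pulmonary libraries, 3.01 to 9.40 CPM in the high-sucrose and 3.36 to 7.67 CPM in the control mesenteric libraries. Alb was thus highest in pulmonary replicates 1 and 2, the pulmonary libraries with most Pck1. Other markers of the list were mixed. Cdh16 was also highest in pulmonary replicates 1 and 2, with 11, 21 and 5 counts in pulmonary replicates 1, 2 and 4. It had 4, 3 and 4 counts in the mesenteric controls and 0 in each high-sucrose library. Lrp2 was highest in pulmonary replicate 4, with 10, 16 and 83 counts in the pulmonary libraries. Ttr, Fgb, Serpina1, Umod and Slc34a1 had no counts in pulmonary replicate 1, and Fgb, Serpina1 and Umod had none in replicate 2. The part of liver or kidney RNA in Pck1 was not tested.

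Ucp1, the uncoupling protein that defines brown fat, had 152, 57 and 7 counts in pulmonary replicates 1, 2 and 4, 0, 0 and 2 counts in the high-sucrose mesenteric libraries and 0, 1 and 1 counts in the mesenteric controls. As levels these were 12.6, 4.08 and 0.45 CPM in the pulmonary libraries, with at most 0.19 CPM in the high-sucrose and at most 0.093 CPM in the control mesenteric libraries. Every pulmonary library lay above every mesenteric one, and within the pulmonary group replicates 1 and 4 were 27.9-fold apart. Cidea, a droplet protein typical of brown and beige fat in mice, was at 80.8, 117 and 16.8 CPM in the pulmonary libraries, at 21.1, 41.6 and 19.6 CPM in the high-sucrose mesenteric libraries and at 34.9, 20.8 and 27.9 CPM in the mesenteric controls. Pulmonary replicates 1 and 2 lay above all 6 mesenteric libraries and pulmonary replicate 4 below them.

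Ppargc1a, the coactivator that drives mitochondrial biogenesis and, in brown fat, Ucp1, was at 3.89, 16.97 and 0.52 CPM in the pulmonary libraries, at 1.23, 6.83 and 0.29 CPM in the high-sucrose mesenteric libraries and at 0.94, 0.34 and 1.40 CPM in the mesenteric controls. Replicate 2 was the high library of both the pulmonary and the high-sucrose group. Cpt1b, the muscle and brown fat form of the enzyme that admits fatty acids to mitochondria, was at 11.3, 200 and 16.5 CPM in the pulmonary libraries, at 5.01, 6.07 and 8.12 CPM in the high-sucrose mesenteric libraries and at 3.97, 5.77 and 8.41 CPM in the mesenteric controls. All 3 pulmonary libraries lay above the mesenteric ones, replicate 2 by far the most. Heart muscle also expresses Cpt1b and Ppargc1a strongly, and pulmonary replicate 2 was the library with the most cardiac RNA.

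The first comparison set the mesenteric artery of high-sucrose offspring against that of control offspring. The 3 white genes of droplet fusion, lipolysis and glycerol supply had the smallest p-values of the 9 fat genes tested. All 3 were higher in the high-sucrose group, and none passed adjustment. Cidec averaged 96.3 ± 49.8 CPM in the high-sucrose and 42.5 ± 8.42 CPM in the control libraries (SD, n = 3 each), a log2 fold change of 1.18 ± 0.40 (SE). By edgeR's quasi-likelihood test it had an unadjusted p = 0.0203 and a Benjamini-Hochberg adjusted p = 1.00 over all features tested. Pck1 had a log2 fold change of 0.93 ± 0.34 (edgeR, unadjusted p = 0.0270) and Pnpla2 of 0.72 ± 0.30 (edgeR, unadjusted p = 0.0479). Without high-sucrose replicate 2, the library highest for 4 of the 6 white genes, the log2 fold changes were 0.74 for Cidec, 0.68 for Pck1 and 0.49 for Pnpla2.

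The white genes outside that trio were mixed. Plin1 had a log2 fold change of 0.65 ± 0.47, which turned to −0.086 without high-sucrose replicate 2. The log2 fold change of Adipoq was 0.095 ± 0.35. That of Lep was −0.23 ± 0.52 and turned to 0.21 without high-sucrose replicate 1.

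No brown gene separated the mesenteric groups. Ucp1 had 2 counts over the 3 high-sucrose and 2 over the 3 control libraries, too few to pass the filter on low counts, and the ratio of its rates was 1.09 with an exact 95% interval of 0.0793 to 15.1. That interval covers counting error only. Cidea had a log2 fold change of −0.013 ± 0.34 and Cpt1b of 0.094 ± 0.37. Ppargc1a had a log2 fold change of 1.64 ± 1.07, which rested on high-sucrose replicate 2 and was −0.19 without it.

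In that fit 0 of 9 tested fat genes passed, and so did 0 of 13995 features (0%). DESeq2 called 3 features (0.0133%), none of them a fat gene. At an unadjusted p under 0.05 there were 3 of the 9 fat genes and 279 of all features (1.99%). The high-sucrose and control libraries overlapped for all 9, whereas 6.10% of all features had no overlap. The log2 fold change was above 0 for 5 of 6 white and 2 of 3 tested brown genes, beside 50.3% of all features. Its median was 0.68 over the white genes, 0.094 over the 3 brown genes and 0.0024 over all features.

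**Figure D2:**
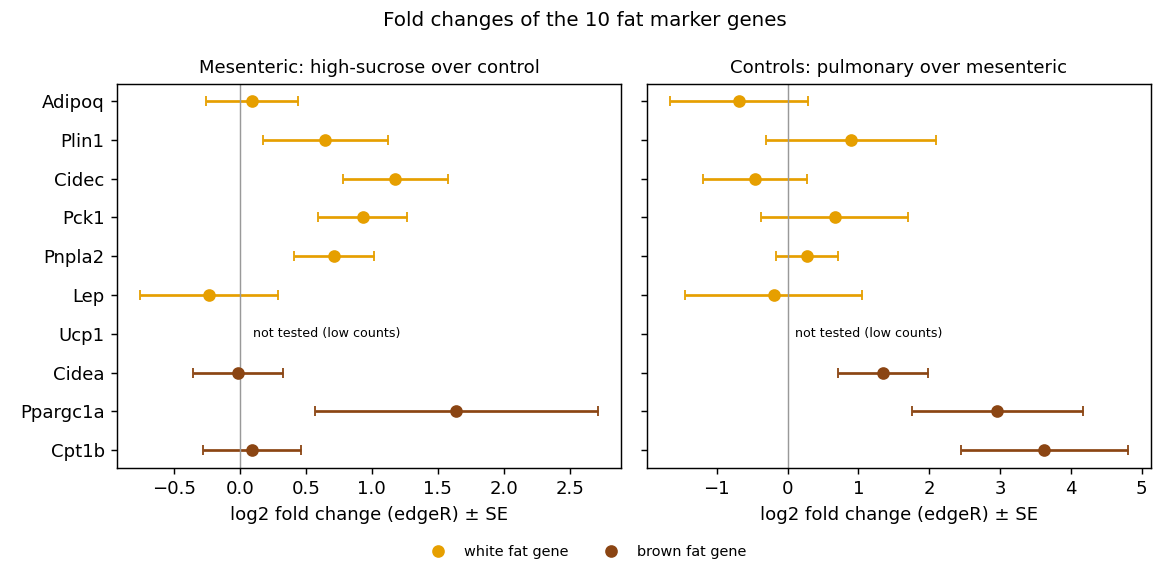
Log2 fold change (horizontal axes, separate scales) with its SE for each fat gene from edgeR, with 3 libraries per group, high-sucrose over control mesenteric artery on the left and pulmonary over mesenteric artery of control offspring on the right. White genes are orange and brown genes dark brown. In the left panel Cidec is at 1.18 and Adipoq at 0.095; in the right panel the 3 tested brown genes lie between 1.34 and 3.63 and the 6 white genes on both sides of 0. Ucp1 had too few counts to be tested.

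Counts of each gene per 100 Adipoq counts of the same library were then compared, a ratio that does not depend on library size and was added after the data were seen. Cidec was at 44.7, 55.7 and 38.3 per 100 Adipoq counts in high-sucrose replicates 1, 2 and 3 and at 21.5, 23.9 and 20.8 in control replicates 1, 2 and 3. Pck1 was at 57.5, 50.7 and 43.1 in the high-sucrose and at 29.0, 19.3 and 34.5 in the control libraries. Pnpla2 was at 96.2, 72.7 and 61.1 in the high-sucrose and at 40.6, 43.0 and 55.8 in the control libraries. For each of these 3 genes all high-sucrose libraries lay above all controls in this ratio. High-sucrose replicate 1 had the lowest Adipoq of the mesenteric libraries (109 CPM). Its own levels of Cidec (48.5 CPM), Pck1 (62.5 CPM) and Pnpla2 (104 CPM) lay within the control ranges.

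Of the 9 fat genes other than Adipoq, 3 had no overlap between the mesenteric groups, beside 1.51% of features. That share was 6.10% on CPM. Features higher in this ratio without overlap were 0.907% with all libraries, 5.84% without high-sucrose replicate 2 and 4.29% without replicate 3. Without replicate 1, 4510 of 14389 features were lower. Most features do not belong to fat, so the share is no like background for fat genes. With 3 libraries against 3 a two-sided exact permutation test cannot go below p = 0.10. It gave 0.10 for Cidec, Pck1 and Pnpla2 alike. The mean log2 differences of these ratios, high-sucrose minus control, were 1.05 for Cidec, 0.90 for Pck1 and 0.71 for Pnpla2. Over the libraries left out in turn they ran from 0.91 to 1.18, from 0.66 to 1.08 and from 0.53 to 0.86. Lep per 100 Adipoq counts was 5.33, 8.76 and 12.1 in the high-sucrose and 13.2, 10.9 and 12.0 in the control libraries, so high-sucrose replicates 1 and 2 were low for it and the groups overlapped.

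**Figure D3:**
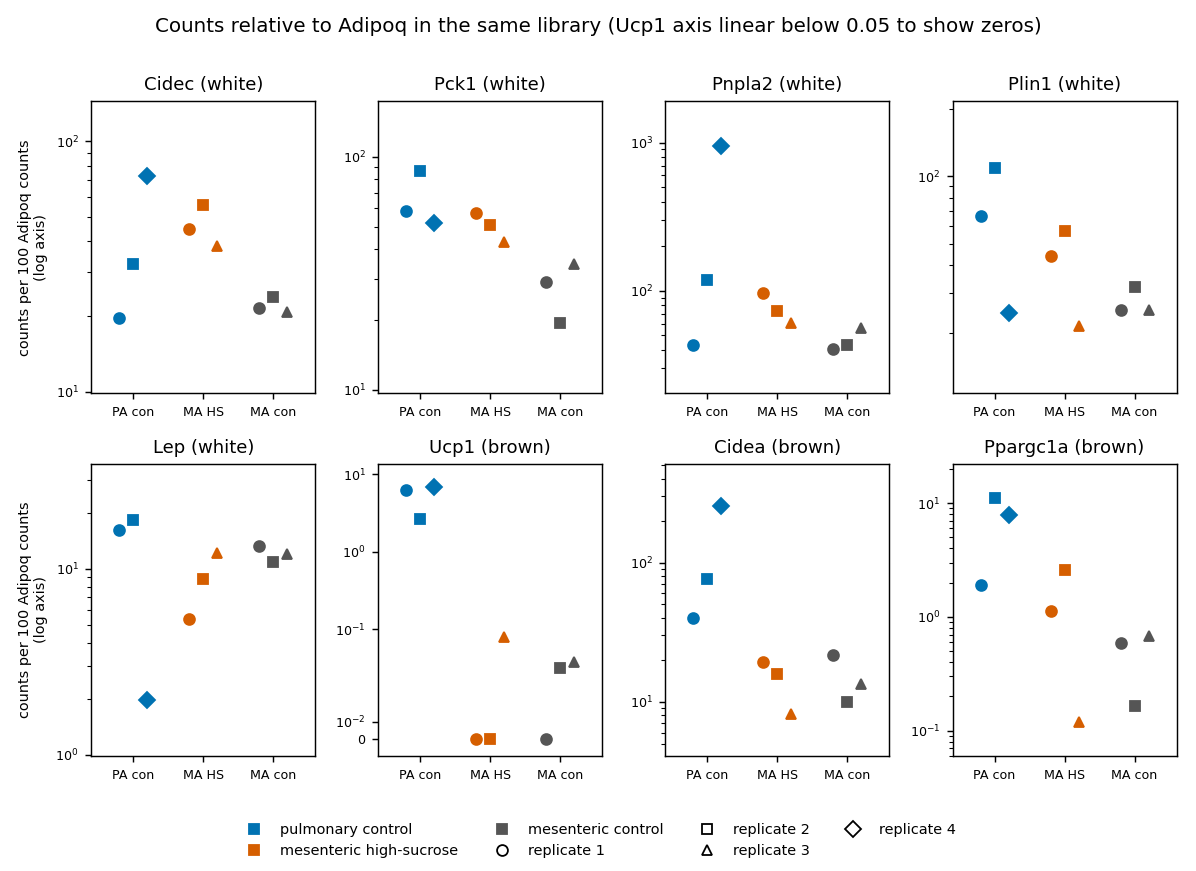
Counts of 8 fat genes per 100 Adipoq counts of the same library (vertical axes, log scale; linear below 0.05 for Ucp1), by group and replicate as labelled: PA con, pulmonary control; MA HS, mesenteric high-sucrose; MA con, mesenteric control. Cidec, Pck1 and Pnpla2 are higher in all 3 high-sucrose than in all 3 control mesenteric libraries, and Ucp1 is at 2.68 to 6.86 in the pulmonary libraries against at most 0.079 in the mesenteric ones.

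Lists of related genes gave the setting of this comparison. Of 29 further white adipocyte genes, 22 had a log2 fold change above 0 (median 0.40), beside 50.3% of all features, and 0 passed. Without high-sucrose replicate 2 it was 15 of 29 (median 0.074), and over the 6 white genes named first the median was 0.20, with 3 of 6 above 0. Among immune cell genes, 8 of 11 of macrophages (median 0.42) and 1 of 7 of lymphocytes (median −0.64) were above 0. Without high-sucrose replicate 2 these medians were 0.26 and −0.68, and their part in the fat genes was not tested. Among the 29 further white adipocyte genes, the 3 with the smallest p were G0s2, Pnpla3 and Fabp4. G0s2, an inhibitor of the Pnpla2 lipase, averaged 16.6 ± 3.93 CPM in high-sucrose and 29.7 ± 4.29 CPM in control libraries. The log2 fold change was −0.79 for Pnpla3 and 0.73 for Fabp4, a fatty acid carrier. G0s2 had a log2 fold change of −0.83 ± 0.23 (edgeR, unadjusted p = 0.0077, adjusted p = 1.00) and its groups did not overlap. The groups had no overlap for 2 of the 29, beside 6.10% of all features. The lipase gene had a higher mean and its inhibitor a lower one in the high-sucrose libraries, with neither past adjustment. G0s2 was named for its small p, and a link between these genes was not tested.

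Capillary endothelium of fat had 4 of 4 tested genes above 0 (median 0.83), and 2 of 4 without high-sucrose replicate 3 (median 0.61). Blood endothelium genes had 6 of 9 above 0, and 3 of 9 without that library. Of the 4 fat capillary genes, 1 had no overlap, beside 6.10% of all features. Rbp7, a retinoid carrier of fat endothelium in mice, averaged 25.0 ± 11.3 CPM in high-sucrose and 7.48 ± 2.81 CPM in control libraries, without overlap (log2 fold change 1.74 ± 0.42, edgeR unadjusted p = 0.00406, adjusted p = 1.00). Gpihbp1, which anchors lipoprotein lipase to capillaries, had a log2 fold change of 1.28 ± 0.55. De novo lipogenesis had 5 of 11 genes above 0 (median −0.025), and Elovl6, a fatty acid elongase, had its smallest p (log2 fold change 0.93). Preadipocyte and stromal genes had 3 of 11 above 0 (median −0.15; 6 of 12 without high-sucrose replicate 2), and Pi16, a marker of adventitial progenitors in mice, had a log2 fold change of −0.93. The brown list had 10 of 16 above 0 (median 0.27, and −0.041 without high-sucrose replicate 2), and beige genes 4 of 7 (median 0.015). No gene of these lists passed.

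Control offspring also allowed pulmonary artery to be compared with mesenteric artery. The brown genes had higher means in pulmonary artery, none past adjustment with edgeR, and the white genes showed no common direction. Ucp1 had 216 counts over the 3 pulmonary and 2 over the 3 mesenteric control libraries, a ratio of rates of 96.7 with an exact 95% counting interval of 26.4 to 804. Without pulmonary replicate 1, which held most of these counts, the ratio was 40.4 (10.7 to 341), and without replicate 4 it was 149 (40.8 to 1240).

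Ucp1 did not pass the filter on low counts, because pulmonary replicate 4 was at 0.45 CPM. With no filter its log2 fold change was 6.43 ± 1.51 (edgeR, unadjusted p = 0.00314, adjusted p = 0.483). DESeq2 called it, with an adjusted p = 0.00173 and a log2 fold change of 6.66 ± 1.56, in a test that called 3.10% of its features. Over the 7 fits that held Ucp1, its log2 fold change lay between 5.82 and 7.58. All 7 kept pulmonary replicate 1, and the fit without that library did not hold Ucp1. The call therefore depended on the test.

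Cpt1b averaged 75.2 ± 106 CPM in pulmonary and 6.10 ± 2.28 CPM in mesenteric control libraries (SD, n = 3 each). Its log2 fold change was 3.63 ± 1.17 (edgeR, unadjusted p = 0.0191, adjusted p = 0.495), and it was 1.20 without pulmonary replicate 2 and 0.88 with replicate 1 as the sole pulmonary library. Across the 9 libraries Cpt1b and the mean level of the cardiac genes had a Pearson r of 0.93 on the log2 scale (0.72 without pulmonary replicate 2), which describes points that share their depth and scaling. Myh6, the atrial myosin heavy chain, had 2.65, 6074 and 465 CPM in pulmonary libraries 1, 2 and 4. In pulmonary replicate 1 Myh6 lay below every mesenteric library, although Actc1, the cardiac actin, was at 1022 CPM there, and Cpt1b lay above all mesenteric libraries. The part of cardiac RNA in Cpt1b was not tested.

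Ppargc1a had a log2 fold change of 2.96 ± 1.21 (edgeR, unadjusted p = 0.0465, adjusted p = 0.576), which was 1.27 without pulmonary replicate 2. Cidea had a log2 fold change of 1.34 ± 0.64 (edgeR, unadjusted p = 0.0745, adjusted p = 0.609), with 0.79 without pulmonary replicate 2 and 1.82 without replicate 4. With the mean level of the cardiac genes, Cidea had an r of 0.48 over 9 libraries, Ucp1 of 0.46 and Ppargc1a of 0.53. Without pulmonary replicate 4 these were 0.76, 0.53 and 0.75, and without replicate 2 they were −0.28, 0.14 and −0.19.

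Among the white genes, log2 fold changes were 0.90 ± 1.20 for Plin1, 0.66 ± 1.03 for Pck1 and 0.27 ± 0.44 for Pnpla2. The log2 fold changes were −0.69 ± 0.98 for Adipoq, −0.46 ± 0.73 for Cidec and −0.19 ± 1.25 for Lep. Pulmonary replicate 4 was the lowest of the 9 libraries for 6 of 6 white genes. Without it the log2 fold changes were 1.49 for Plin1, 1.24 for Pck1, 0.57 for Pnpla2, −0.12 for Adipoq, 0.069 for Cidec and 0.40 for Lep.

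In this fit 0 of 9 tested fat genes passed, beside 2 of 14315 features (0.0140%). At an unadjusted p under 0.05 there were 2 of the 9 (Ppargc1a and Cpt1b) and 8.53% of all features. Cpt1b was the 1 of 9 without overlap between pulmonary and mesenteric control libraries, beside 14.1% of all features. The log2 fold change was above 0 for 3 of 6 white and 3 of 3 tested brown genes, beside 54.5% of all features. Its median was 0.040 over the white genes, 2.96 over the 3 brown genes and 0.058 over all features. Without pulmonary replicate 2 the medians were −0.39 over the white and 1.20 over the 3 brown genes, and without replicate 4 they were 0.48 over the white and 3.83 over all 4 brown genes.

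Relative to Adipoq, all 4 brown genes were higher in each pulmonary library than in the mesenteric controls. So were 1651 of 14315 features (11.5%), with 11 lower. The share higher was 43.3% (6540 of 15097) without pulmonary replicate 1, 14.7% without replicate 2 and 11.7% without replicate 4. Ucp1 was at 6.21, 2.68 and 6.86 per 100 Adipoq counts in pulmonary replicates 1, 2 and 4, against 0, 0.041 and 0.045 in mesenteric control replicates 1, 2 and 3. Cidea was at 39.8, 76.4 and 256 in the pulmonary libraries, against 21.8, 9.99 and 13.4 in the mesenteric controls. The value of 256 is in replicate 4, where the level of Cidea itself, 16.8 CPM, was below that of all mesenteric libraries. Ppargc1a was at 1.92, 11.1 and 7.84 in the pulmonary libraries, against 0.59, 0.17 and 0.67 in the mesenteric controls.

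The ratio of Ucp1 to Adipoq varied 2.56-fold within the pulmonary group, where the Ucp1 level varied 27.9-fold. Pulmonary replicate 4 had 102 Adipoq counts and 7 Ucp1 counts, so its ratios are the least precise. Of the 9 genes other than Adipoq, 5 (Pck1, Ucp1, Cidea, Ppargc1a and Cpt1b) had no overlap in this ratio, beside 11.6% of features, and each had p = 0.10 in the two-sided exact permutation test, the smallest that 3 libraries against 3 allow. Pck1 was at 58.3, 86.6 and 52.0 per 100 Adipoq counts in the pulmonary libraries, against 29.0, 19.3 and 34.5 in the mesenteric controls. The mean log2 difference of that ratio was 1.26. On log2 CPM, with 0.5 added to each count rather than to CPM, the difference of Pck1 was −0.44. Replicate 4, at 3.42 CPM, was the lowest of all libraries for Pck1. Relative to the mean of the other white adipocyte genes the difference was 0.12. For Cidea these differences were 2.68, 0.99 and 1.55, and for Ucp1 6.81, 5.11 and 5.67. Without pulmonary replicate 4 the differences relative to Adipoq were 1.41 for Pck1, 1.95 for Cidea and 6.53 for Ucp1, and without replicate 2 they were 1.04, 2.82 and 7.25. Lymphocyte and lung genes moved with replicate 4 and cardiac genes with replicate 2, and their part in these ratios was not tested.

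White and brown genes were also set against each other in each library, as the mean log2(CPM + 0.5) of the 6 white minus that of the 4 brown genes. The difference was 2.48, 1.40 and 0.23 in pulmonary replicates 1, 2 and 4, 3.88, 4.45 and 4.85 in the high-sucrose mesenteric libraries and 3.93, 4.45 and 4.06 in the mesenteric controls. All 3 pulmonary libraries lay below all 6 mesenteric ones, and the 2 mesenteric groups overlapped. The group mean in pulmonary minus that in mesenteric control libraries was −2.78, and −2.69 with Ucp1 and Cidea as the only brown genes. It was −2.21 without pulmonary replicate 4 and −2.80 without replicate 2. In replicate 4 the small difference came with the lowest white mean (2.26, against 5.55 to 6.94 in the other 8 libraries), while its brown mean of 2.04 lay within the mesenteric range of 1.51 to 2.50.

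**Figure D4:**
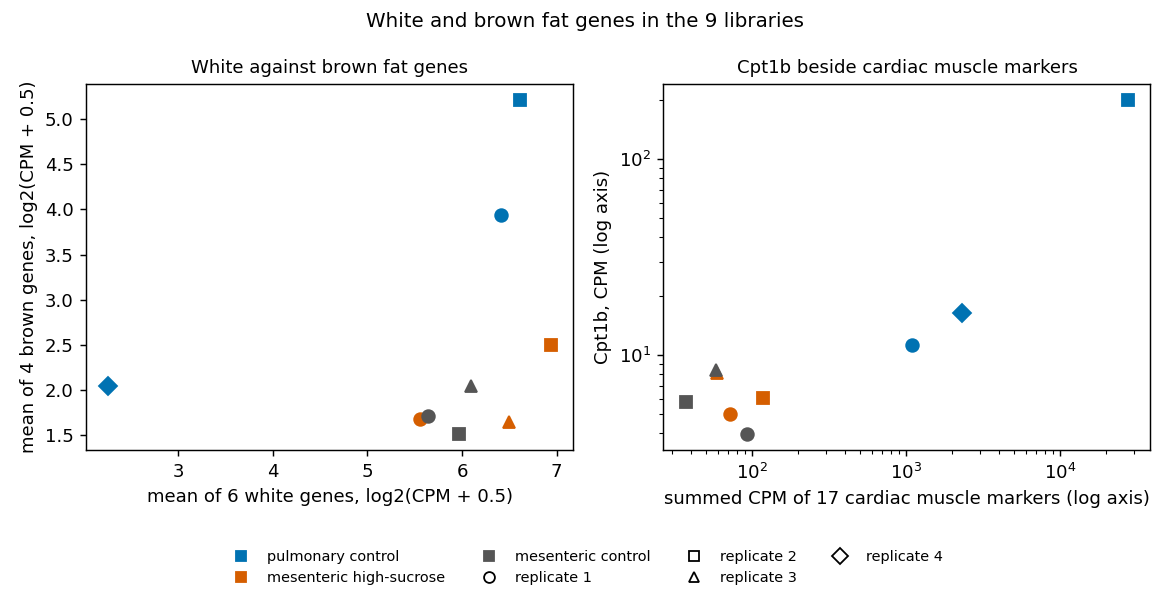
Left, the mean log2(CPM + 0.5) of the 4 brown genes against that of the 6 white genes, 1 point per library. Right, Cpt1b in CPM against the summed CPM of 17 cardiac muscle genes, both on log axes. The cardiac sum of pulmonary replicate 1 is mostly Actc1 (1022 of 1089 CPM). Pulmonary replicates 1 and 2 combine a white mean like that of mesenteric arteries with a higher brown mean, and pulmonary replicate 2 holds the highest values of both Cpt1b and cardiac genes.

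Of 17 tested brown genes beyond the 4, 14 had a log2 fold change above 0 in pulmonary artery (median 0.34), beside 54.5% of all features. Of these 17, 0 passed, 1 had an unadjusted p under 0.05, beside 8.53% of all features, and 1 had no overlap, beside 14.1%. The median was 0.11 without pulmonary replicate 2, 0.69 without replicate 4 and 0.18 without replicate 1. The 22 brown genes found summed to 581, 666 and 121 CPM in pulmonary replicates 1, 2 and 4, to 338 to 544 CPM in the high-sucrose and to 378 to 550 CPM in the control mesenteric libraries, so replicate 4 was the lowest library. The smallest p-values were those of Kcnk3, a potassium channel also found in lung vessels and heart, at 34.4, 99.6 and 8.00 CPM in pulmonary libraries 1, 2 and 4 (log2 fold change 2.71), of Esrrg, a nuclear receptor of oxidative tissues (2.55), and of Dio2, which activates thyroid hormone (1.64). Zic1, a transcription factor of classical brown fat in mice, had 0 counts in all 9 libraries, and Elovl3, a fatty acid elongase of mouse brown fat, had 0 in all 3 pulmonary libraries.

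Beige fat genes had 7 of 7 above 0 in pulmonary artery (median 1.23, and 0.29 without pulmonary replicate 2), with 0 passing. Of these 7, 1 had no overlap, beside 14.1% of all features, and 1 had an unadjusted p under 0.05, beside 8.53%. Tmem26, a surface marker of beige fat in mice, was at 14.3, 6.37 and 1.81 CPM in the pulmonary and at 1.41, 0.60 and 0.19 CPM in the mesenteric control libraries, without overlap (log2 fold change 3.31 ± 0.99, edgeR unadjusted p = 0.0135, adjusted p = 0.464). The log2 fold change was 1.36 for Slc36a2, an amino acid transporter of brown and beige fat in mice, and 1.25 for Tnfrsf9. Tnfrsf9, also a receptor of activated T cells, was highest in pulmonary replicate 4 (10.3 CPM), the library with the most lymphocyte RNA.

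White adipocyte genes beyond the 6 had 13 of 29 above 0 in pulmonary artery (median −0.072), 17 of 29 without pulmonary replicate 4 (median 0.23) and 7 of 29 without replicate 2 (median −0.45), with the smallest p for Sncg (log2 fold change −1.69), Abhd5, a coactivator of the Pnpla2 lipase (−0.65), and Agpat2, an enzyme of triglyceride synthesis (−1.43). Their summed level was 1819, 3083 and 574 CPM in pulmonary replicates 1, 2 and 4, 1674 to 3544 CPM in the high-sucrose and 1711 to 2161 CPM in the control mesenteric libraries, so replicate 4 was low for this list too. Lipogenesis genes had 8 of 11 above 0 (median 0.32, and −0.055 without replicate 4), with a log2 fold change of 0.76 for Srebf1, a lipogenic transcription factor. Stromal and preadipocyte genes had 1 of 12 above 0 (median −0.54, and −0.11 without replicate 4), with log2 fold changes of −1.34 for F3, −1.57 for Zfp521 and 2.01 for Dpp4, a progenitor marker and the exception. Mesothelial genes, a further source of cells on the surface of dissected vessels, had 7 of 8 above 0 (median 3.49), and Msln was at 50.7, 9.17 and 137 CPM in the pulmonary and at most 0.34 CPM in the mesenteric control libraries. No gene of these lists passed.

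Correlations between the fat genes across libraries rested in part on pulmonary replicate 4, the lowest point for the white genes. Over 9 libraries, on log2(CPM + 0.5), Adipoq had a Pearson r of 0.97 with Lep, 0.92 with Pck1, 0.91 with Plin1 and Cidec, and 0.55 with Pnpla2. Over the 8 libraries without pulmonary replicate 4, Adipoq had an r of 0.75 with Lep, 0.32 with Pck1, 0.27 with Plin1, 0.58 with Cidec and 0.31 with Pnpla2. The mean level of the smooth muscle genes had an r of 0.80 with Adipoq, 0.80 with Plin1 and 0.85 with Pck1 over the 9 libraries, and of −0.24, 0.095 and 0.32 over those 8. Cidea had an r of 0.89 with Ppargc1a and 0.77 with Ucp1 over 9 libraries, and of 0.89 and 0.82 over the 8. Adipoq and Ucp1 had an r of 0.028 over 9 and of −0.024 over the 8. All these points share their depth and scaling. Ucp1 had at most 2 counts in each mesenteric library, so its correlations rest mainly on the pulmonary libraries. Of 12443 other genes, the 5 most like Adipoq over all 9 libraries, replicate 4 included, were Serinc1 (r = 0.99), Pnpla8, Dennd4c, Fyttd1 and Thrsp (0.98), and the 5 most like Ucp1 were Ptgds (0.99), Tm4sf4, Obp3, Tenm2 and Dipk2a (0.94).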

How the data were processed

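Poly(A) RNA of 9 artery libraries was sequenced, per the labels' protocols, with second-strand marking. The authors deposited for every library a file of raw counts by gene, and the build rn7 is named in the submitters' processing notes. The counting strand, aligner, counter and annotation were not given in the sources used here, and so any reads shared with gene copies or antisense transcripts cannot be told apart. Of the 10 genes, only Ppargc1a overlaps another RefSeq gene, a pseudogene.

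Genes were tested with edgeR 4.0.16 in R 4.3.3 by the quasi-likelihood F test with TMM factors, filterByExpr and a robust prior, on the 6 libraries of each comparison. Benjamini-Hochberg adjustment covered all features tested, with 0.05 as the threshold. Levels by library are CPM on totals scaled by TMM over 9 libraries, and means beside a test use TMM over the 6. The scripts were tested on simulated data. Alternatives were other size factors, DESeq2 1.42.0, limma-voom (limma 3.58.1), other filters, all libraries in 1 fit, a replicate block and each library left out. Replicates differed with a chi-square of 42.5 to 312 per degree of freedom, so none was a repeat of another within sampling noise. Intervals are exact at 95% confidence and cover counting error only. All 10 genes are named, with up to 3 genes of smallest p per list in a comparison and the 5 genes most like Adipoq and Ucp1. Of 204 further listed genes, 186 were found, 4 of them by another name. The genes and lists were chosen with earlier results of these data known, and lists of genes were given no test of their own.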

Additional observations from a re-analysis of the deposited data

How the results depend on the processing

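No fat gene passed the edgeR or limma-voom test in any setting tried. In high-sucrose against control mesenteric artery 0 features passed except with DESeq2 (3). In pulmonary against mesenteric artery 2 passed, against 462 with DESeq2 (among them 1 of the fat genes, Ucp1), 33 with limma-voom, 38 with all 9 libraries in 1 fit, 0 with replicate 1 as the sole pulmonary library, and 0 to 22 with a library left out in turn. With the replicate number as a block 36 passed, and the log2 fold changes of Cidec and Lep turned to 0.082 and 0.45. Same-numbered mesenteric libraries had correlations of deviations of 0.20, −0.30 and 0.12 and pulmonary and mesenteric ones of 0.18 and −0.17. So few values cannot show whether the numbers pair the samples. In the mesenteric comparison the log2 fold change of Adipoq turned to −0.14 with limma-voom. With libraries left out in turn, signs turned there for Adipoq (−0.12 to 0.41), Plin1 (−0.086 to 0.93), Lep (−0.67 to 0.21), Cidea (−0.44 to 0.17), Ppargc1a (−0.19 to 2.16) and Cpt1b (−0.14 to 0.40), and in the pulmonary comparison for Cidec (−0.95 to 0.069), Pnpla2 (−0.27 to 0.57) and Lep (−0.71 to 0.40). With replicate 1 as the sole pulmonary library Adipoq was at 0.055, Pnpla2 at −0.075 and Lep at 0.49. Relative to Adipoq, the pulmonary difference of Pck1 was 1.26, and on CPM it was −0.44. Those ratios, and the Ucp1 ratios, lists and correlations with a library left out, were chosen after seeing the data. The cause of these changes was not tested. The white-minus-brown difference moved by less than the spread between libraries in all settings. The stricter filter left out Ppargc1a, which has no value there. Low counts limit Ucp1 in mesenteric artery and most ratios in pulmonary replicate 4.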

Other observations

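Of the 5 genes most like Ucp1 over the libraries, Obp3 encodes an odorant-binding protein and Ptgds a prostaglandin D synthase, while Cidea, the nearest of the brown fat genes, had a Pearson r of 0.77 with Ucp1. Prdm16, a coregulator of brown and beige fat in mice, had 93.5, 47.0 and 10.004 CPM in pulmonary libraries 1, 2 and 4, at 69.2, 94.6 and 31.6 CPM in the high-sucrose mesenteric libraries and at 53.8, 7.40 and 69.5 CPM in the mesenteric controls, and the groups overlapped. Ebf2, a transcription factor of brown preadipocytes in mice, was at 22.5, 18.8 and 5.55 CPM in the pulmonary libraries, at 20.5, 17.7 and 16.9 CPM in the high-sucrose mesenteric libraries and at 14.7, 21.3 and 24.9 CPM in the mesenteric controls.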
